A study of Homo sapiens with 36 samples.

Results

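Metallothioneins and their transcriptional regulator MTF1 were followed as a set of 9 listed genes, found by symbol among the 45478 gene rows of the count matrix. The 8 metallothionein members are MT2A, MT1E, MT1F, MT1G, MT1H, MT1L, MT1M and MT1X, and their counts were also added into 1 sum because they are near copies of one another. The genes were chosen from their levels in library-scaled counts (CPM) across all 12 groups of the study, so differences between cell states are given below as descriptions with no test.

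The study measured polyadenylated RNA in A498 and 786-O, 2 human clear cell renal carcinoma lines, and in derivatives of each grown in the kinase inhibitor sunitinib until they grew stably, at 2 µM for A498 and 4 µM for the other line. All cells, parental ones included, received durvalumab, avelumab or atezolizumab, antibodies against the checkpoint ligand PD-L1, for 24 h at a labelled 10 mg/mL. The 12 groups were thus A498 resistant, A498 parental, 786-O resistant and 786-O parental cells, each with durvalumab, avelumab and atezolizumab, and each group had 3 libraries. No library without antibody was analysed here, each resistant derivative is a single line, and the labels do not tell whether the 3 libraries of a group are separate cultures. P-values therefore measure only how far these libraries scatter, which may be technical.

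Metallothioneins are small, cysteine-rich proteins that bind zinc and copper and take up toxic metals such as cadmium. Their genes are induced when free zinc rises: MTF1, a zinc finger protein, then binds metal response elements in their promoters, and it also drives SLC30A1, which exports zinc from the cell. Glucocorticoids and oxidative stress induce several of them as well, and kidney tubule is among the tissues where they are abundant.

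Library depth ran between 19994882 and 58122896 assigned counts, so 3 counts in a library corresponded to 0.0516 to 0.150 CPM. No 2 libraries were identical. Each cell state carried its own batch label, so cell state and batch cannot be told apart, whereas the 3 antibodies were compared inside a batch. The 10 genes listed as kidney tubule and epithelial markers were PAX8, PAX2, KRT8, KRT18, CDH2, CA9, VIM, EPCAM, CDH1 and LRP2. In each state 7 of them were at 1 CPM or more, PAX8, KRT8, KRT18 and VIM among them, and the rest were below. None of 5 leukocyte and none of 4 endothelial markers reached 1 CPM in any state. Of 6 fibroblast markers, 3 were at 1 CPM or more in the libraries labelled A498 resistant, 1 in A498 parental cells and 2 in each 786-O state. For the libraries labelled A498 resistant their summed level was 25.3 to 28.6 CPM, against 50.5 to 61.8 CPM in A498 parental cells. In 786-O it ran between 10.3 and 12.1 CPM in resistant and between 5.81 and 8.05 CPM in parental cells. COL1A1, LUM and PDGFRB gave these levels, with COL1A1 at 4.70 CPM in the libraries labelled A498 resistant, against 55.7 CPM in A498 parental cells, and LUM at 16.2 CPM under the resistant label, against 0.0142 CPM in A498 parental cells. COL1A2, COL3A1 and DCN stayed at 0.134 CPM or less in every library. The part of these genes in the metallothionein differences was not tested. The libraries labelled A498 resistant did not resemble A498 parental cells. HIF1A, which 786-O is known not to express as a functional protein, averaged 8.99 ± 0.49 CPM in them and 294 ± 7.37 CPM in A498 parental cells, against 8.71 ± 0.424 CPM in 786-O resistant, against 9.36 ± 0.571 CPM in 786-O parental cells (SD, n = 9 each). Over 15400 genes their mean profile correlated at r = 0.987 with 786-O resistant, 0.953 with 786-O parental and 0.869 with A498 parental cells, on log2(CPM + 1) values. They are therefore called the libraries labelled A498 resistant, and every contrast of A498 resistant with A498 parental cells rests on them.

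The 7 metallothionein members annotated as protein-coding share a coding sequence of 186 bases, 61 codons and a stop, taken here from the GENCODE 29 transcripts. Those of the 4 that reached 1 CPM are printed to show how closely they match and why reads can be hard to place. Capitals mark the bases that differ from MT2A.
MT2A: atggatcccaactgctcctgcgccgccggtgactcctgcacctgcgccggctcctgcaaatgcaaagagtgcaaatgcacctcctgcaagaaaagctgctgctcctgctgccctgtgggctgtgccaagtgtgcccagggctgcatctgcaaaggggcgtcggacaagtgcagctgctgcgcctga
MT1E: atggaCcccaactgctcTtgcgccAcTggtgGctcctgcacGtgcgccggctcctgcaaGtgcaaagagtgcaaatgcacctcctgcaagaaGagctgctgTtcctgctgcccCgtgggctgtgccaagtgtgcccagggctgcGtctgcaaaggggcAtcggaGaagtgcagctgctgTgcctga
MT1F: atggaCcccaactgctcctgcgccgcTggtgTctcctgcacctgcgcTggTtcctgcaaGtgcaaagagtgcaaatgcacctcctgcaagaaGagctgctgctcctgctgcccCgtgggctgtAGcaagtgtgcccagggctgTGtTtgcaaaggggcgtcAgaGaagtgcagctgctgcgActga
MT1X: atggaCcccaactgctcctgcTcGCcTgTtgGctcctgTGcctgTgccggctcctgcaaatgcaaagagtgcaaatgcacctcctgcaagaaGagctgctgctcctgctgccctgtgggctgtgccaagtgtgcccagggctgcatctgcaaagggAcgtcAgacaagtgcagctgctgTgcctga
MT1E matched MT2A at 92.5% of these bases, MT1F at 91.4% and MT1X at 92.5%, and the lowest identity to MT2A in the family was 89.8%, in MT1M. The differences are scattered along the sequence rather than gathered at one end. Over the whole annotated transcripts, between 1.22% (MT1F) and 18.3% (MT1X) of the 50-base windows of a metallothionein member also occurred exactly in a transcript of another gene. At 100 bases the share was 0 for all but MT1X, with 11.3%, and MT1H, with 1.39%. The length of the reads and the treatment of reads with several placements could not be found in the labels or notes, so the split between single genes is less certain than the sum.

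All 8 lie in 1 cluster on chromosome 16 of GRCh38, and all but MT1G are on the plus strand. MT2A (ENSG00000125148.7, chr16:56608199-56609497) comes first. MT1L (ENSG00000260549.1, chr16:56617476-56618818), annotated as a transcribed unprocessed pseudogene, starts 9.28 kb further on. MT1E (ENSG00000169715.15, chr16:56625475-56627112) starts at 17.3 kb and MT1M (ENSG00000205364.4, chr16:56632233-56633986) at 24.0 kb. MT1F (ENSG00000198417.7, chr16:56657694-56660698), MT1G (ENSG00000125144.13, chr16:56666731-56668065) and MT1H (ENSG00000205358.3, chr16:56669814-56671129) start at 49.5, 58.5 and 61.6 kb. MT1X (ENSG00000187193.9, chr16:56682424-56684196) starts at 74.2 kb, and 18.1% of its exonic length is shared with another annotated gene on the same strand, AC026461.1, so its counts are uncertain. MTF1 (ENSG00000188786.10, chr1:37809567-37859620, minus strand) lies apart from the cluster.

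Promoters were taken from RefSeq (GRCh38.p14), 250 bases before to 50 after each gene's start, and 4 of the 9 members had an entry. The core of the metal response element was searched on both strands as TGCACNC or TGCGCNC, and matches are in capitals. The 3 metallothionein promoters are shown because they include the family's most abundant member and one with almost no reads.
MT2A (chr16:56608334-56608633, plus strand): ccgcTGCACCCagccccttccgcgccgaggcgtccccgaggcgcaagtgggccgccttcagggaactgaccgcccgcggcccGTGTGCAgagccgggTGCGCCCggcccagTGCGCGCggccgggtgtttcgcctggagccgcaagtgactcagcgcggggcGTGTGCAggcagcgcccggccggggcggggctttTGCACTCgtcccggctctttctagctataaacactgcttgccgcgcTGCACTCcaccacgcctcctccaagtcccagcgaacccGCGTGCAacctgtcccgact
MT1H (chr16:56669564-56669863, plus strand): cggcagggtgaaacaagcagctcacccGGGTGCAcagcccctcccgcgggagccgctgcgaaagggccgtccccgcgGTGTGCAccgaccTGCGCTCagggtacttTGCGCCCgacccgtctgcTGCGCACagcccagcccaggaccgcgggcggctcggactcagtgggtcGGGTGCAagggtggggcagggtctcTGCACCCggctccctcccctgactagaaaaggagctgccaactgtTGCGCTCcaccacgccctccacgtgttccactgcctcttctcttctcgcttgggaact
MT1X (chr16:56682220-56682519, plus strand): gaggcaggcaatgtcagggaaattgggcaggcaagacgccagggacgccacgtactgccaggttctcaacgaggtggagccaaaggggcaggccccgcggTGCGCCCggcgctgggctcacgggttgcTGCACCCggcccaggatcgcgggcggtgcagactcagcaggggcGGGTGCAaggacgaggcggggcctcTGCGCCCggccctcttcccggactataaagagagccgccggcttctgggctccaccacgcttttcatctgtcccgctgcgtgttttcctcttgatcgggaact
MT2A held 8 matches, MT1H 8 and MT1X 4, none overlapping another, and the MTF1 promoter held none. Of all 35116 RefSeq promoters of the same length, 29.6% held at least 1 match, 0.601% held 4 or more and 0.0199% held 8 or more. MT2A and MT1H thus had the same number of matches, whereas MT2A was at 300.5 CPM or more in every library and MT1H had 2 counts in all 36 libraries together. A match is a stretch of letters and shows no binding.

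Scaled to annotated exonic length, MT2A was the most abundant member in all 4 states. It averaged 262 ± 27.0 RPKM (counts scaled by exonic length and library total) in the libraries labelled A498 resistant, against 322 ± 26.0 RPKM in A498 parental cells, and 277 ± 23.7 RPKM in 786-O resistant, against 566 ± 46.8 RPKM in 786-O parental cells (SD, n = 9 each). MT1E came second in 3 states, at 113 ± 6.20 RPKM in the libraries labelled A498 resistant, 103 ± 6.88 RPKM in 786-O resistant, against 251 ± 11.8 RPKM in 786-O parental cells. In A498 parental cells MT1E was at 0.293 ± 0.108 RPKM and MT1X came second, at 5.22 ± 0.575 RPKM. MT1L reached 42.8 ± 3.20 RPKM in 786-O parental cells and at most 0.609 RPKM as the mean of any other state. MT1F stayed between 0.577 and 6.72 RPKM as a state mean, and MTF1 between 3.18 and 3.63 RPKM. Lengths come from GENCODE 29, while the identifiers in the matrix are of a later release, so the RPKM values are approximate. Each length is the union of all annotated exons of a gene, 411 bases for MT1L, 1299 for MT2A and 1773 for MT1X. Comparisons between genes, such as MT1L with MT1X, therefore depend on these lengths.

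**Figure D1:**
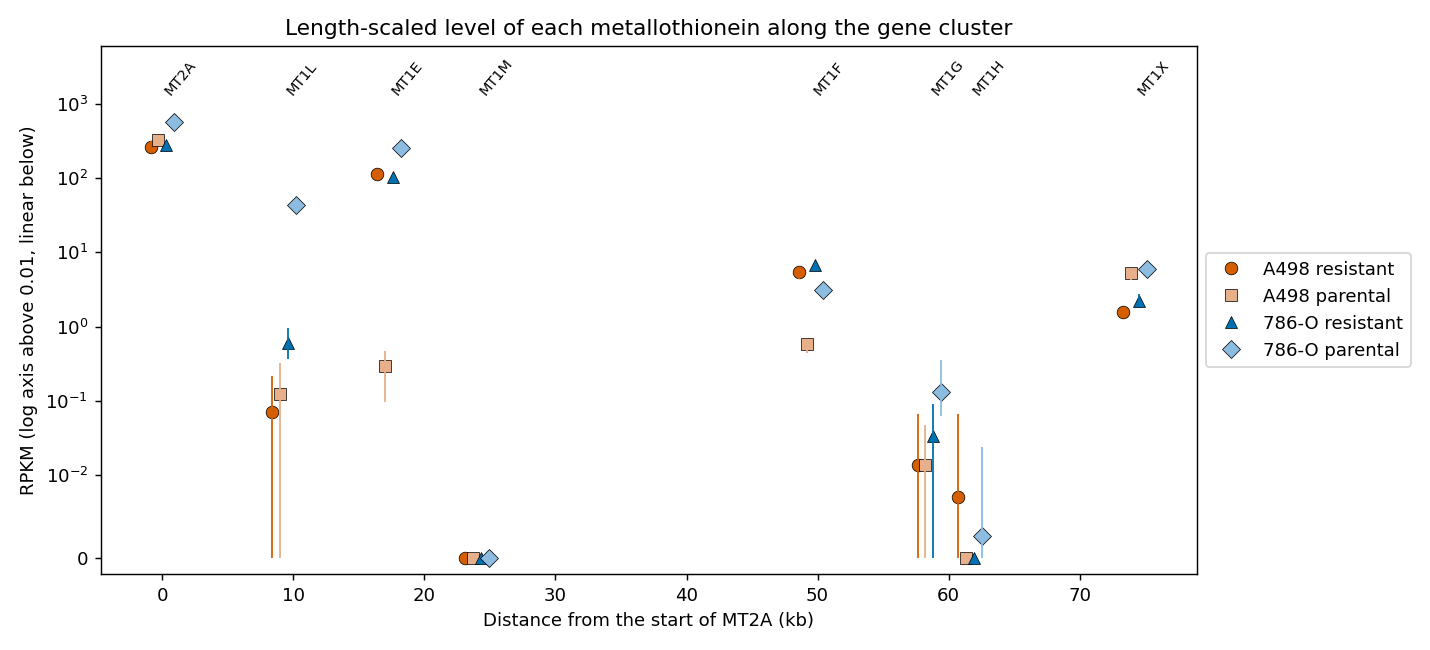
Mean RPKM of each metallothionein (y axis, log scale above 0.01 and linear below) against the distance of its start from that of MT2A in kb, by cell state; vertical lines span the lowest to the highest of 9 libraries, and points are set slightly apart in x. MT2A is high in all 4 states, MT1E is high in 3 and at 0.293 RPKM in A498 parental cells, MT1L is high in 786-O parental cells, and MT1M lies at 0.

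MT2A, the member that most human tissues express at the highest level, ran in CPM at a lowest of 300.5, a median of 329.9 and a highest of 405.9 in the 9 libraries labelled A498 resistant, against 383.5, 403.2 and 482.2 in the 9 A498 parental ones. These 2 ranges overlapped. The 786-O resistant libraries had a lowest, median and highest of 318.6, 360.1 and 398.2 CPM, against 643.8, 735.0 and 828.0 CPM in 786-O parental cells. All 9 parental libraries of 786-O were above all 9 resistant ones, and above every library of the other states. The fitted log2 difference was -0.39 ± 0.066 (SE) for the libraries labelled A498 resistant minus A498 parental cells and -1.14 ± 0.057 between 786-O resistant and parental cells, 2.21-fold lower in the resistant cells. In bulk RNA, fewer expressing cells and less RNA per cell cannot be told apart, here and for every level below.

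MT1E, a metallothionein 1 isoform gene, had state means between 0.308 and 264 CPM. It ran at a lowest of 113.3, a median of 117.3 and a highest of 131.0 CPM in the libraries labelled A498 resistant, against 0.100, 0.293 and 0.49 CPM in A498 parental cells. Each A498 parental library held between 3 and 14 MT1E counts, 93 in all, which pool to 0.305 CPM with an exact Poisson 95% interval of 0.246 to 0.374 that covers counting error only. For 786-O resistant cells MT1E ran at 90.7, 110.7 and 114.5 CPM, against 246.2, 265.0 and 281.0 CPM in 786-O parental cells. Thus 3 states had MT1E at 90.7 CPM or more in every library and 1 had almost none. The libraries labelled A498 resistant and the 786-O resistant ones overlapped, and no other pair of states did. The log2 difference was 8.50 ± 0.070 for the libraries labelled A498 resistant minus A498 parental cells, -1.39 ± 0.035 between 786-O resistant and parental cells and 0.11 ± 0.037 between the 2 resistant states. Between the parental lines it was -9.77 ± 0.062, A498 minus 786-O. These SE values were derived from the test statistic. They understate the error of the differences that involve A498 parental cells, where MT1E counts were few. In the A498 contrast MT1E passed the filter on low counts through the resistant group alone.

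MT1F, a further isoform gene, was the metallothionein whose libraries were higher in resistant cells under both labels, with no overlap. It ran at a lowest of 8.25, a median of 10.3 and a highest of 11.2 CPM in the libraries labelled A498 resistant, against 0.826, 1.06 and 1.26 CPM in A498 parental cells. In 786-O resistant cells it ran at 11.7, 12.9 and 13.7 CPM, against 5.42, 5.89 and 6.44 CPM in 786-O parental cells. No 2 of the 4 states overlapped. The log2 differences, resistant minus parental, were 3.13 ± 0.077 under the A498 label and 1.00 ± 0.045 in 786-O, where the sum of the cluster was lower.

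MT1X, at the far end of the cluster from MT2A, was lower in both resistant states than in their parental counterparts. It ran at a lowest of 2.41, a median of 2.78 and a highest of 3.14 CPM in the libraries labelled A498 resistant, against 7.50, 9.06 and 10.7 CPM in A498 parental cells. The 786-O resistant libraries ran at 3.26, 3.66 and 4.89 CPM, against 9.11, 10.6 and 11.9 CPM in 786-O parental cells. The 2 parental lines overlapped and every other pair of states was apart. The log2 differences were -1.81 ± 0.066 under the A498 label and -1.54 ± 0.061 in 786-O. MT1F and MT1X therefore ran opposite ways: there were 366 ± 40.1 MT1F reads per 100 MT1X reads in the libraries labelled A498 resistant, against 11.9 ± 1.90 in A498 parental cells, and 329 ± 41.6 in 786-O resistant, against 56.4 ± 6.23 in 786-O parental cells (SD, n = 9 each).

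MT1L, the pseudogene between MT2A and MT1E, had reads mainly in 786-O parental cells. It held 6 counts over the 9 libraries labelled A498 resistant and 15 over the A498 parental ones, and 93 over the 786-O resistant libraries against 6161 over the 786-O parental ones. In CPM it ran at 0.149, 0.281 and 0.392 (lowest, median, highest) in 786-O resistant cells, against 15.5, 17.6 and 19.3 in 786-O parental cells. The 786-O groups did not overlap, and the log2 difference was -6.23 ± 0.085, with the filter on low counts passed through the parental group. This SE also understates the error, because the resistant libraries held few MT1L counts. MT1L did not keep a fixed ratio to its neighbour: there were 0.232 ± 0.0834 MT1L reads per 100 MT1E reads in 786-O resistant cells and 6.67 ± 0.567 in 786-O parental cells, and 0.0239 ± 0.0249 in the libraries labelled A498 resistant, where MT1E was as high as in 786-O resistant cells.

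The remaining metallothioneins had few counts or none. MT1G held 2 counts over the libraries labelled A498 resistant and 3 over the A498 parental ones, and 9 over the 786-O resistant and 34 over the 786-O parental ones. MT1H held 2 counts in 2 libraries. MT1M had 0 counts in all 36 libraries, which allows a level of up to 0.0024 CPM over the 1251181200 counts together. MT1G reached at most 9 counts in a library, in 786-O parental cells. No fold is given for these 3, and 6 of the 9 members therefore carry the results. Of 13 further metallothionein genes and copies on a list, 11 had a row and only MT2P1, a processed copy on chromosome 4, reached 1 CPM in some group. It had 1.29 ± 0.221 reads per 100 MT2A reads in the libraries labelled A498 resistant, against 1.50 ± 0.116 in A498 parental cells, and 1.57 ± 0.249 in 786-O resistant, against 1.55 ± 0.203 in 786-O parental cells, a nearly constant share of MT2A.

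**Figure D2:**
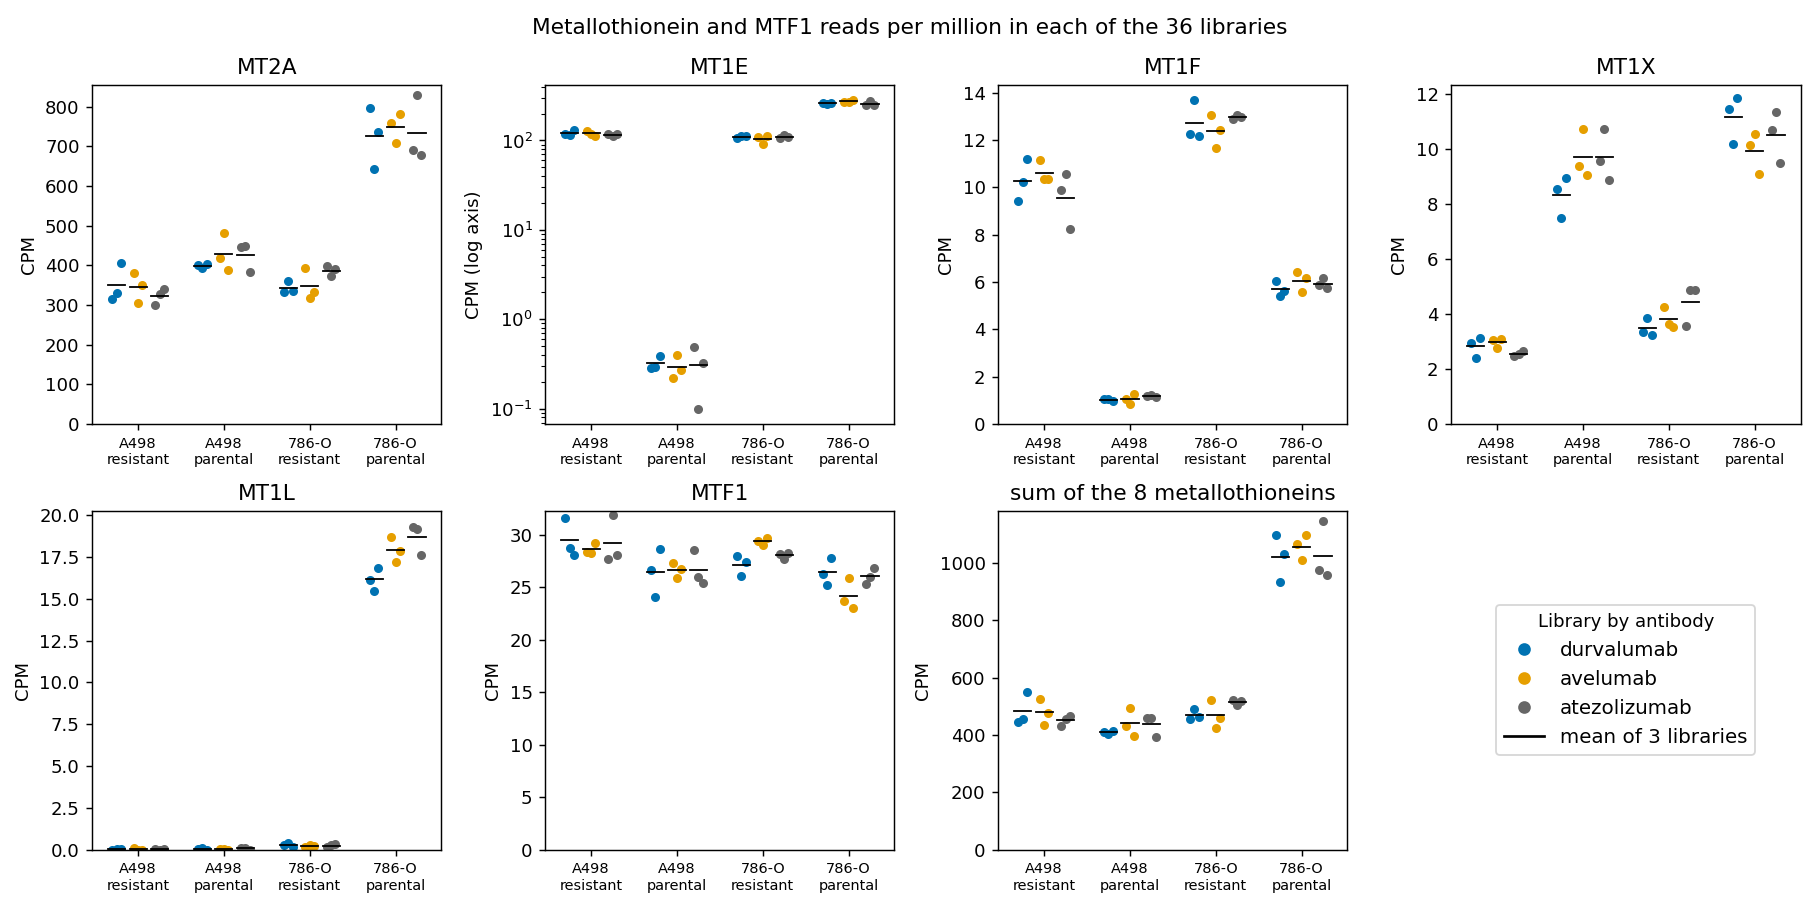
CPM of the 5 metallothioneins with reads, of MTF1 and of the sum of the 8 metallothioneins in each of the 36 libraries, by cell state on the x axis and antibody by colour; short bars are means of 3 libraries, and the MT1E axis is logarithmic. MT1E stands at 0.100 to 0.49 CPM in A498 parental cells, MT1L above 15 CPM in 786-O parental cells only, and MTF1 between 23.0 and 31.9 CPM throughout.

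The sum of the 8 metallothioneins ran at a lowest of 431.9, a median of 457.1 and a highest of 551.4 CPM in the libraries labelled A498 resistant, against 393.8, 413.6 and 494.1 CPM in A498 parental cells. In 786-O resistant cells it ran at 424.9, 491.3 and 521.1 CPM, against 931.9, 1031 and 1144 CPM in 786-O parental cells. The 786-O parental libraries stood above all others and the other 3 states overlapped, whether or not the libraries labelled A498 resistant are counted. The log2 difference of the sum was 0.05 ± 0.059 under the A498 label, -1.20 ± 0.045 in 786-O, 2.30-fold lower in the resistant cells, and -1.30 ± 0.057 between A498 and 786-O parental cells.

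A similar sum was made up differently. MT2A gave 71.9% ± 1.46 of the metallothionein reads in the libraries labelled A498 resistant, against 97.5% ± 0.140 in A498 parental cells, and 74.1% ± 1.53 in 786-O resistant, against 71.1% ± 1.09 in 786-O parental cells (SD, n = 9 each). MT1E gave 25.3% ± 1.36 in the libraries labelled A498 resistant, against 0.0720% ± 0.0248 in A498 parental cells, and 22.4% ± 1.47 in 786-O resistant, against 25.6% ± 1.02 in 786-O parental cells. MT1L gave 1.71% ± 0.144 of the sum in 786-O parental cells. Under the A498 label the sums of the 2 states overlapped while the share of MT1E did not.

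**Figure D3:**
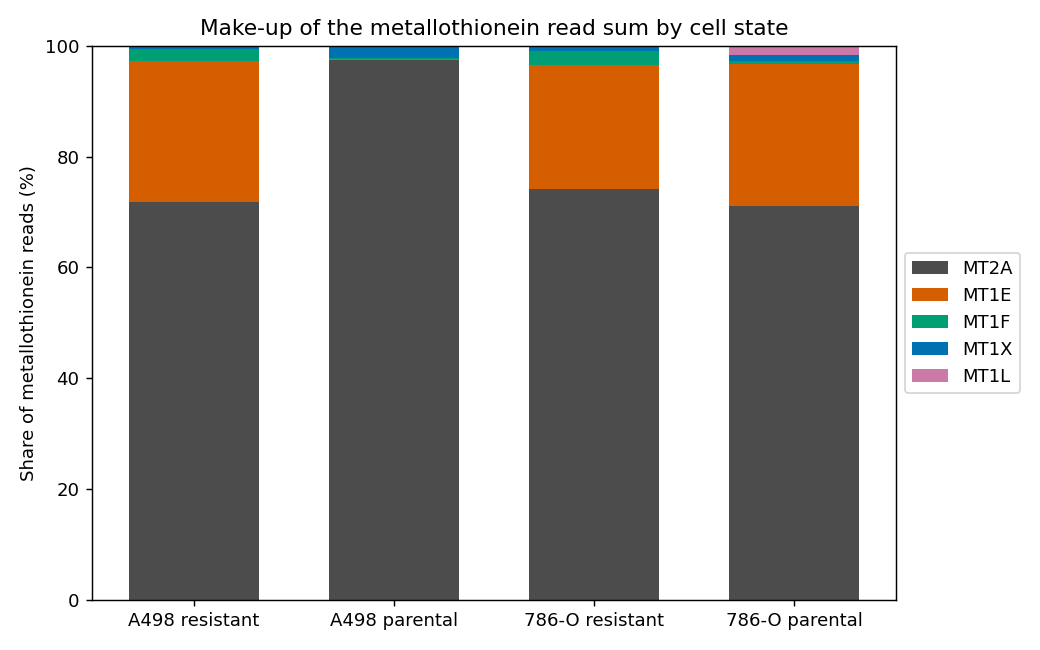
Mean share of the metallothionein reads given by MT2A, MT1E, MT1F, MT1X and MT1L (y axis, percent) in each cell state, 9 libraries per bar. MT1E fills 22.4% to 25.6% of the bar in 3 states and 0.0720% in A498 parental cells, where MT2A fills 97.5%.

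MTF1, the regulator, was the member with reads whose 4 state means lay closest together in proportion. It ran at a lowest of 27.7, a median of 28.4 and a highest of 31.9 CPM in the libraries labelled A498 resistant, against 24.1, 26.6 and 28.6 CPM in A498 parental cells. The 786-O resistant libraries ran at 26.1, 28.1 and 29.7 CPM, against 23.0, 25.9 and 27.8 CPM in 786-O parental cells. Neighbouring states in the order of MTF1 levels overlapped. The log2 difference was 0.05 ± 0.035 under the A498 label, 0.03 ± 0.030 in 786-O, 0.03 ± 0.033 between the parental lines and 0.02 ± 0.033 between the resistant ones. On raw totals the first 2 were 0.13 and 0.14. The median log2 ratio of raw CPM means over 15400 genes was 0.124 under the A498 label and 0.0845 in 786-O, where the fits had medians of 0.01 and 0.03 over all genes tested. In 786-O the regulator thus differed by 0.03 or 0.14 with the scaling. MT2A, MT1E and MT1X were each more than 2-fold lower in the resistant cells, and whether MTF1 had a part in this was not tested.

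Genes outside the family were tested across all genes with edgeR's quasi-likelihood test at an adjusted p of 0.05. In these contrasts most genes passed: 88.2% of 19458 in the libraries labelled A498 resistant minus A498 parental cells, 44.2% higher and 44% lower, and 83.8% of 19369 in 786-O resistant minus parental cells, 43.6% higher and 40.2% lower. A list in which most genes passed is therefore near the background. The lists were drawn up with earlier results of these data known.

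SLC30A1, the plasma membrane zinc exporter that MTF1 induces, was lower in resistant cells than in parental cells of the same label, under both labels. It averaged 55.2 ± 2.30 CPM in the libraries labelled A498 resistant, against 101 ± 4.72 CPM in A498 parental cells, a log2 difference of -0.95 ± 0.025 (edgeR adjusted p = 1.87e-34). In 786-O it averaged 37.2 ± 3.35 CPM in resistant and 42.6 ± 2.36 CPM in parental cells, a log2 difference of -0.31 ± 0.043 (edgeR adjusted p = 7.03e-07). The libraries labelled A498 resistant, whose profile was closer to 786-O, thus had a higher SLC30A1 mean than 786-O parental cells. That pair of states was not tested. Between the parental lines SLC30A1 was 1.21 ± 0.026 higher in A498 than in 786-O on the log2 scale (edgeR adjusted p = 3.27e-34), where the metallothionein sum was lower. Of 8 MTF1 targets outside the family, 7 were tested in each contrast of resistant with parental cells. The list was not split by whether MTF1 induces or represses a gene, so its counts do not measure MTF1 activity. Under the A498 label 2 rose, 3 fell and 2 did not pass, with a list median of 0.02 against 0.01 over all genes, and in 786-O 3 rose and 4 fell, with a median of -0.06 against 0.03. SLC40A1, the iron exporter ferroportin, rose by 5.16 ± 0.21 under the A498 label, to 2.49 CPM in the libraries labelled resistant against 0.0611 CPM in parental cells, and by 3.66 ± 0.23 in 786-O, to 1.35 CPM in resistant against 0.112 CPM in parental cells. PGF, placenta growth factor, rose by 1.82 ± 0.16 under the A498 label and by 1.29 ± 0.096 in 786-O.

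Zinc exporters of the SLC30 family fell more often than they rose in both contrasts. Under the A498 label 2 of 7 tested rose and 5 fell, with a median of -0.77, and in 786-O 1 of 6 rose and 5 fell, with a median of -0.34. SLC30A4, a vesicular exporter, fell by 1.21 ± 0.080 on the log2 scale under the A498 label and rose by 0.49 ± 0.10 in 786-O. SLC30A5 and SLC30A7, which load zinc into the secretory pathway, fell by 0.50 ± 0.032 and by 0.41 ± 0.043 in 786-O. SLC30A3, known from synaptic vesicles, averaged 0.0165 CPM in the libraries labelled A498 resistant, against 4.26 CPM in A498 parental cells. In 786-O parental cells SLC30A3 averaged 0.0033 CPM. Zinc importers of the SLC39 family were split. Of 12 tested, 5 rose and 6 fell under the A498 label, with a median of -0.07, and 3 rose and 8 fell in 786-O, with a median of -0.26. SLC39A8, which brings zinc and manganese into cells, rose by 0.58 ± 0.029 under the A498 label and fell by 0.61 ± 0.031 in 786-O. SLC39A1, at the plasma membrane, rose by 0.87 ± 0.060 under the A498 label and by 0.54 ± 0.061 in 786-O, and SLC39A4, the importer of dietary zinc in the gut, fell by 1.36 ± 0.035 under the A498 label. SLC39A13, an importer of intracellular vesicles, rose by 0.66 ± 0.025 in 786-O.

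Copper genes gave 3 that rose and 10 that fell of 13 under the A498 label, with a median of -0.43, and 5 that rose and 6 that fell in 786-O, with a median of 0.02. ATP7B, a copper-exporting ATPase, rose by 0.89 ± 0.046 under the A498 label and by 0.93 ± 0.044 in 786-O. SOD1, the copper-zinc superoxide dismutase, fell by 0.74 ± 0.026 in 786-O, and CP, ceruloplasmin, by 1.50 ± 0.070 and ATOX1, a copper chaperone, by 0.97 ± 0.031 under the A498 label. Heat shock and metal stress genes gave 1 that rose and 10 that fell of 12 under the A498 label, with a median of -0.61, and 5 that rose and 6 that fell in 786-O, with a median of -0.07. HMOX1, heme oxygenase 1, which metals also induce, averaged 51.5 ± 1.88 CPM in the libraries labelled A498 resistant, against 559 ± 29.4 CPM in A498 parental cells. CRYAB, a small heat shock protein, averaged 4.60 ± 0.347 CPM in the libraries labelled A498 resistant, against 102 ± 3.51 CPM in A498 parental cells, and HSPA1A, the inducible HSP70, 8.14 ± 0.956 CPM in the libraries labelled A498 resistant, against 74.8 ± 5.26 CPM in A498 parental cells. In 786-O parental cells HMOX1, CRYAB and HSPA1A averaged 52.4, 1.44 and 14.2 CPM. For each of them the libraries labelled A498 resistant were closer to 786-O parental than to A498 parental cells. In 786-O the mitochondrial chaperones HSPD1 and HSPE1 fell by 0.98 ± 0.026 and 0.85 ± 0.039. A498 parental cells thus had the highest HMOX1, CRYAB, HSPA1A and SLC30A1 means of the 4 states and the lowest MT1E, MT1F and metallothionein sum. That sum overlapped with both resistant states, and the MT2A and MT1X means were higher there than in either resistant state. A link between these levels was not tested.

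Glucocorticoid-induced genes gave 6 that rose and 3 that fell of 9 under the A498 label, with a median of 0.10, and 1 that rose and 6 that fell in 786-O, with a median of -0.16. KLF9, a transcription factor that glucocorticoids induce, rose by 0.90 ± 0.046 under the A498 label and fell by 0.93 ± 0.056 in 786-O. ERRFI1, a feedback inhibitor of the EGF receptor, rose by 1.02 ± 0.028 under the A498 label and fell by 0.71 ± 0.036 in 786-O. FKBP5, a chaperone of the glucocorticoid receptor, fell by 0.53 ± 0.028 in 786-O. Of 9 transcription factors and cofactors known at metallothionein promoters, 4 rose and 5 fell under the A498 label and 3 rose and 3 fell in 786-O, with medians of -0.13 and -0.0012. USF1, an upstream factor that binds E boxes, fell by 0.67 ± 0.029 under the A498 label and by 0.56 ± 0.028 in 786-O. In 786-O STAT3 rose by 0.73 ± 0.022 and CTCF fell by 0.49 ± 0.026.

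Genes near the cluster on chromosome 16 did not share 1 direction. Of 12 listed, 5 rose and 5 fell of 11 tested under the A498 label and 4 rose and 5 fell of 10 tested in 786-O, with medians of 0.09 and -0.16. NLRC5, a regulator of MHC class I genes, averaged 70.0 ± 3.20 CPM in the libraries labelled A498 resistant, against 39.2 ± 2.01 CPM in A498 parental cells. In 786-O it averaged 64.6 ± 3.07 CPM in resistant and 17.1 ± 0.702 CPM in parental cells. NUDT21, a cleavage factor of messenger RNA 3' ends, fell by 0.90 ± 0.029 in 786-O, and LPCAT2, a lysophospholipid acyltransferase, by 1.21 ± 0.031. GNAO1, a G protein subunit, averaged 0.0601 CPM in the libraries labelled A498 resistant, against 3.77 CPM in A498 parental cells. In 786-O parental cells GNAO1 averaged 0.0061 CPM. In these 2 contrasts every gene outside the family named as having risen or fallen passed at an edgeR adjusted p of 5.48e-05 or less.

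**Figure D4:**
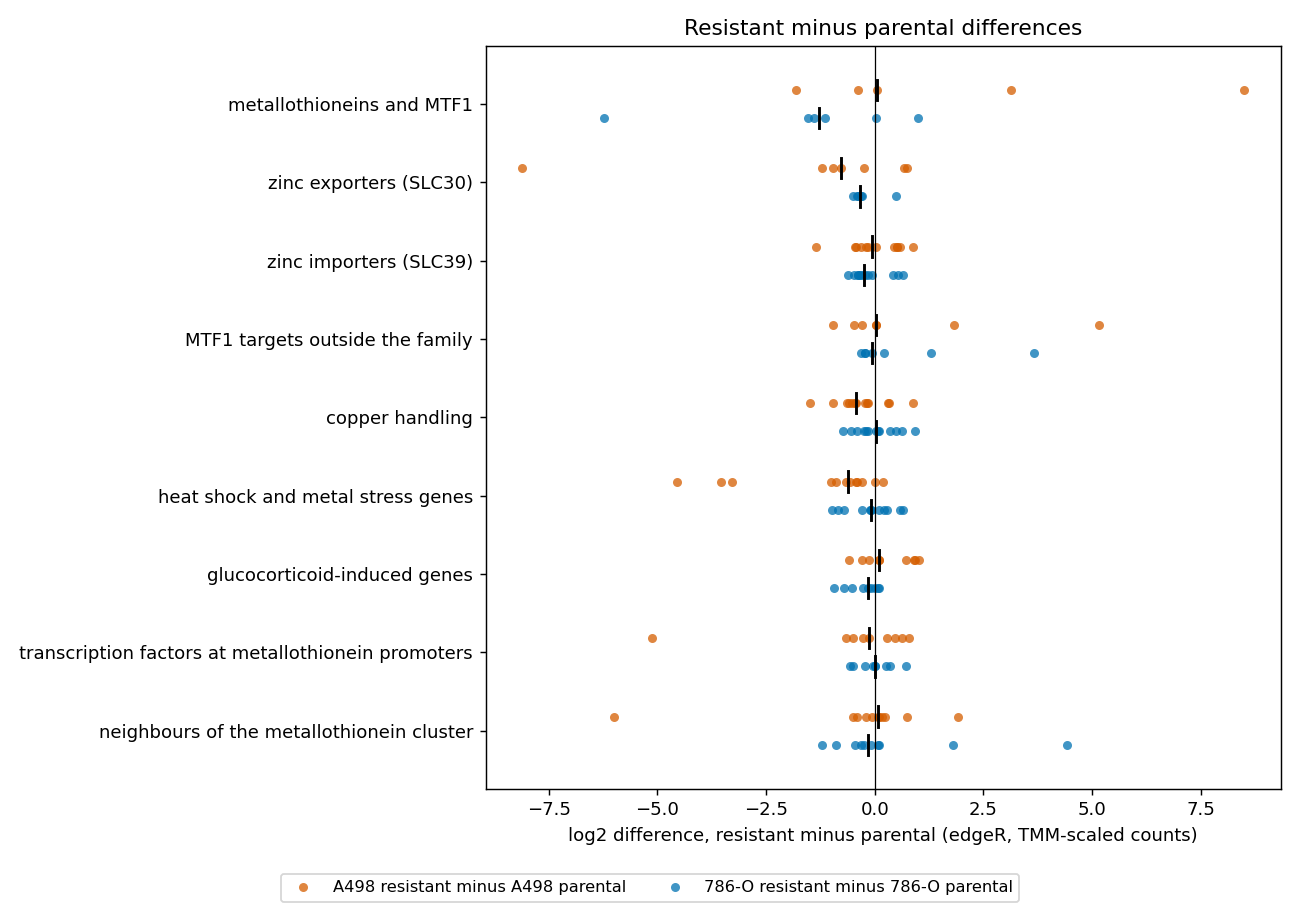
Log2 differences, resistant minus parental (x axis), of the members that passed the filter on low counts and of every tested gene on 8 related lists (rows), for the A498 label and for 786-O; 1 point per gene, with black ticks at the medians. In the top row the points for the A498 label run between -1.81 and 8.50 and those for 786-O between -6.23 and 1.00.

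Between the parental lines 87.2% of 19703 genes passed, 44.3% higher and 42.9% lower, and between the resistant states 69% of 19196, 33.8% higher and 35.2% lower. Of the SLC30 exporters 5 of 7 were higher and 2 lower in A498 than in 786-O parental cells, and all 6 tested were higher in the libraries labelled A498 resistant than in 786-O resistant ones, SLC30A7 by 0.56 ± 0.040 and SLC30A9 by 0.41 ± 0.031 among them. Of the MTF1 targets outside the family 4 were higher and 2 lower of 6 between the parental lines, and 4 higher and 3 lower of 7 between the resistant states. Of the metallothionein members, MT1F had a log2 difference of -2.47 ± 0.077 between A498 and 786-O parental cells, MT1X one of -0.22 ± 0.050 and MT2A one of -0.84 ± 0.062. MT1L, which passed the filter through 786-O alone, had one of -8.47 ± 0.12, an SE too small for its few counts in A498. Between the resistant states MT2A differed by -0.11 ± 0.062, MT1F by -0.36 ± 0.047 and MT1X by -0.51 ± 0.080.

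The 3 antibodies were compared in pairs inside each cell state, 12 contrasts in all, with edgeR's quasi-likelihood test across all genes of a state. The members' levels in the 12 groups, which these tests and the interactions below compare, were known when the members were chosen. Their p-values are therefore descriptive. Across 66 tests of members 1 passed the adjusted threshold, and 10 had an unadjusted p under 0.05. That call was MT1L in 786-O parental cells, durvalumab against atezolizumab, where 1.82% of all genes passed. Over all genes the share at an unadjusted p under 0.05 ran from 612 of 17510 to 3279 of 17577 per edgeR contrast. The 10 therefore show nothing particular to the members. With DESeq2 none of the 66 passed and 7 had an unadjusted p under 0.05, with no count over all genes to set beside them. MT1L stood at 16.2, 15.5 and 16.8 CPM with durvalumab, against 19.3, 19.2 and 17.6 CPM with atezolizumab. All 3 durvalumab libraries were lower, by 0.23 ± 0.059 on the log2 scale (edgeR adjusted p = 0.0433). The call did not hold without any 1 of the 6 durvalumab and atezolizumab libraries or without avelumab replicate 3, with an edgeR adjusted p of up to 0.234, nor with DESeq2 (adjusted p = 0.0674) or on raw totals (adjusted p = 0.0667). Avelumab stood at 18.7, 17.2 and 17.8 CPM and overlapped with atezolizumab only. In these cells 4.34% of genes passed between avelumab and atezolizumab and 0 between durvalumab and avelumab, and no member did.

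Elsewhere no member passed. In the libraries labelled A498 resistant, where the share of genes that passed was 0.00571% for durvalumab minus atezolizumab, 0 for avelumab minus atezolizumab, and 0.0114% between durvalumab and avelumab, MT1F had the lowest p. It stood at 11.2, 10.3 and 10.4 CPM with avelumab, against 9.91, 10.6 and 8.25 CPM with atezolizumab, a log2 difference of 0.15 ± 0.090 (edgeR adjusted p = 0.9998). In A498 parental cells, where the shares for these 3 pairs were 2.8%, 3.39% and 0.0599%, MT1X stood at 8.53, 7.50 and 8.94 CPM with durvalumab, against 9.38, 10.7 and 9.06 CPM with avelumab. The durvalumab libraries were all lower, by 0.23 ± 0.088 (edgeR adjusted p = 0.525). In 786-O resistant cells, where they were 0, 1.2% and 0.387%, MT2A stood at 331.5, 360.1 and 336.1 CPM with durvalumab and at 394.3, 318.6 and 331.8 CPM with avelumab, against 398.2, 372.3 and 390.0 CPM with atezolizumab. Durvalumab did not overlap with atezolizumab and avelumab did. The log2 difference was -0.20 ± 0.064 for durvalumab minus atezolizumab (edgeR adjusted p = 0.320) and -0.18 ± 0.064 for avelumab minus atezolizumab (edgeR adjusted p = 0.200). Without the filter on low counts both passed, at edgeR adjusted p = 0.0220 and 0.0260, and without avelumab replicate 1 the avelumab difference was -0.27 (edgeR adjusted p = 0.0159). MT1X in the same cells stood at 3.37, 3.87 and 3.26 CPM with durvalumab, against 3.56, 4.89 and 4.87 CPM with atezolizumab, a log2 difference of -0.37 ± 0.13 (edgeR adjusted p = 0.350).

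The sum of the cluster passed in none of the 12 contrasts with edgeR, nor with DESeq2, and 2 had an unadjusted p under 0.05 with each tool. Both were in 786-O resistant cells, where the sum stood at 454.1, 491.3 and 464.0 CPM with durvalumab and at 521.1, 424.9 and 460.2 CPM with avelumab, against 520.5, 505.0 and 518.9 CPM with atezolizumab. The log2 differences from atezolizumab were -0.16 ± 0.058 for durvalumab (edgeR adjusted p = 0.350) and -0.16 ± 0.058 for avelumab (edgeR adjusted p = 0.200). Of all 18886 genes tested in these cells, 2251 and 2867 had an unadjusted edgeR p under 0.05 in these contrasts. Without avelumab replicate 1, the library at 521.1 CPM, the avelumab difference was -0.24 (edgeR adjusted p = 0.0312). In the other states antibody means of the sum differed by at most 1.08 times. MTF1 antibody means differed by at most 1.09 times in any state, and none of its 12 contrasts passed.

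**Figure D5:**
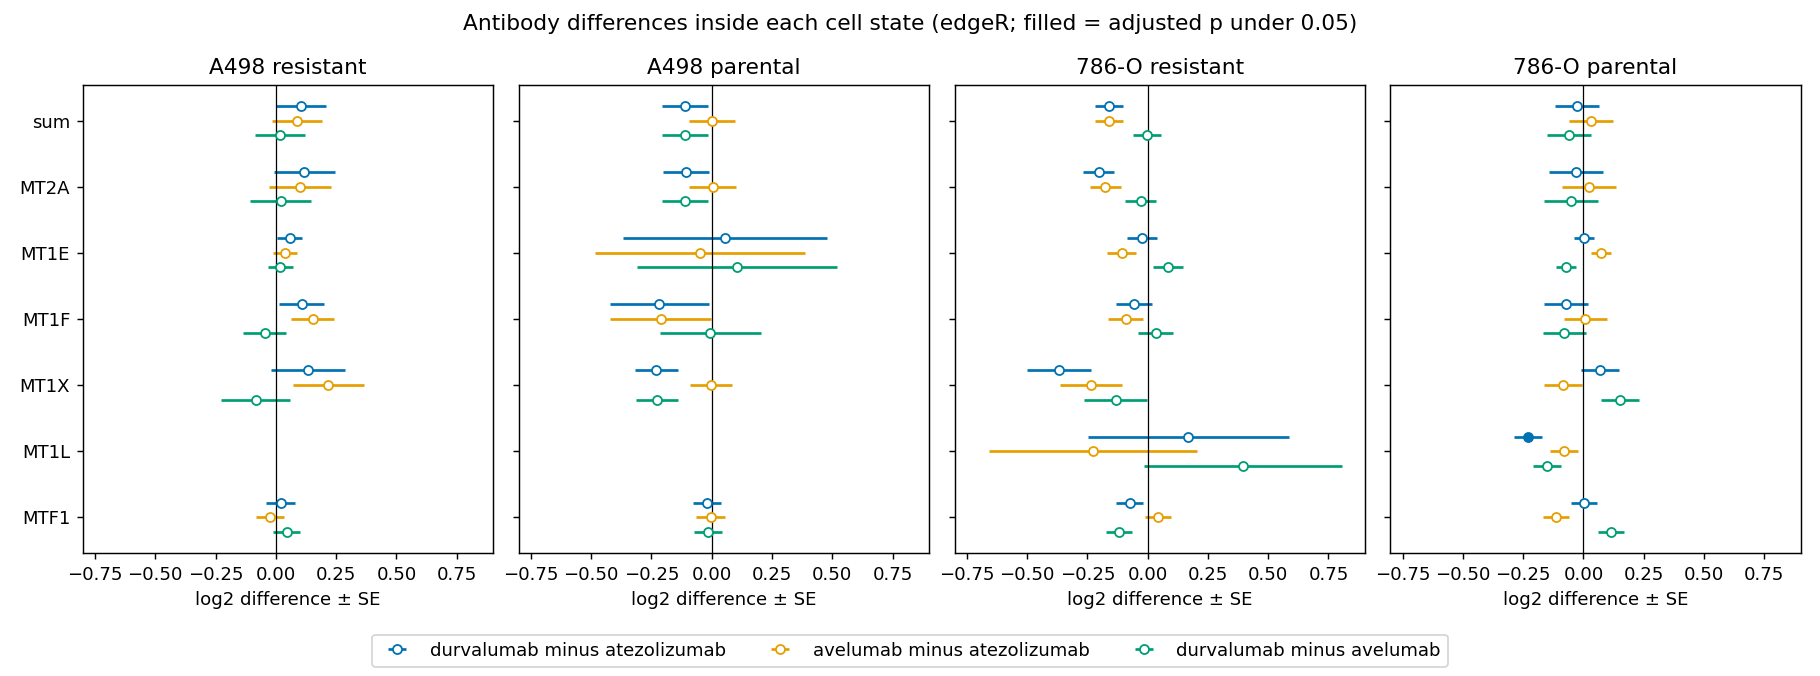
Log2 differences ± SE (x axis) for each pair of antibodies in each cell state, for the metallothionein sum and the members that passed the filter on low counts; a filled point has an edgeR adjusted p under 0.05. The only filled point is MT1L in 786-O parental cells, durvalumab minus atezolizumab, at -0.23.

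Whether an antibody difference itself differed between states was tested as an interaction for A498 resistant against parental, 786-O resistant against parental and A498 against 786-O parental cells. For durvalumab minus atezolizumab 0.987%, 0.0516% and 0.797% of genes passed in these 3 pairs of states. For avelumab minus atezolizumab 0.324%, 1.2% and 1.37% passed, and for durvalumab minus avelumab 0.0154%, 0.0465% and 0.117%. None of the 51 tests of members passed with edgeR or with DESeq2, and 6 had an unadjusted p under 0.05 with each. Over all genes that share ran from 1732 of 19703 to 3209 of 19369 per interaction with edgeR. The 6 from edgeR therefore show nothing particular to the members, and those from DESeq2 had no count over all genes to set beside them. The lowest member p was that of MT1X for durvalumab minus avelumab between A498 and 786-O parental cells. Its difference was -0.38 ± 0.12 on the log2 scale (edgeR adjusted p = 0.214). MTF1 for durvalumab minus avelumab between 786-O resistant and parental cells followed, at -0.23 ± 0.074 (edgeR adjusted p = 0.261).

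The genes whose pattern was most like that of the metallothionein sum are given as a description. Over the 12 group means of 13002 genes, which carry the 4 cell states with their batches, the 5 most similar were CDH13-AS2 (r = 0.995), EIF3I (0.994), SNU13 (0.994), RPL37A (0.992) and TUBA1B (0.992). EIF3I, a subunit of a translation initiation factor, averaged 216 CPM in the libraries labelled A498 resistant, against 204 CPM in A498 parental cells, and 229 CPM in 786-O resistant, against 390 CPM in 786-O parental cells. Over the 36 libraries with each state's mean taken away the 5 were ATP6AP1 (r = 0.747), CFL1 (0.705), HM13 (0.686), COX8A (0.682) and SCAMP3 (0.676), and libraries share their depth and composition in this measure.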

How the data were processed

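Counts per gene for 36 libraries, in 12 groups of 3, were deposited by the authors as 1 matrix of raw counts. Per the submitters' processing notes featureCounts 1.6.3 counted reads placed on GRCh38 by HISAT2 2.1.0, with Trimmomatic 0.36.6 and bcl2fastq 2.19.0 before them, and per the labels the library kit was stranded and selected polyadenylated RNA. The annotation release, strand setting and handling of reads with several placements were not given in sources used here, so reads of near copies can be split or lost. Gene symbols were found for 45283 of 45478 rows. Groups come from the library titles.

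The members and all lists were chosen with earlier results of these data known. CPM values are counts over the library total. Tests used edgeR 4.0.16 in R 4.3.3 (quasi-likelihood, TMM scaling, filterByExpr with a count minimum of 10, Benjamini-Hochberg adjustment over all genes, threshold 0.05), fitted per cell state for antibody pairs and per pair of states otherwise. The cluster sum was added as a row and its p adjusted with all genes. Differences of members between states are given without p-values. The SE of an edgeR difference is the log2 difference over the square root of the F statistic. It is too small for large differences in which a state has few counts, such as MT1E in A498 parental cells. Fits were tested on simulated data. Named genes were all members, per list up to 3 with the largest difference at 1 CPM or more, always SLC30A1, and the 5 most similar genes per measure. Alternatives were relative log expression scaling, no or a stricter filter (1 CPM in every library), DESeq2 1.42.0, leaving out each library, the replicate number as a block, a sum over every copy and TMM-scaled levels, and, chosen after seeing the data, raw-total scaling. Intervals and floors cover counting error only.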

Additional observations from a re-analysis of the deposited data

Results flagged for a closer look

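MT1E in the library of 786-O resistant cells with avelumab, replicate 2, stood at 90.7 CPM, below the other 8 libraries of that state by more than a test for a single extreme sample allows. The same library had the lowest MT2A level of the state, at 318.6 CPM. MT1G in the library of 786-O parental cells with atezolizumab, replicate 2, stood at 0.27 CPM, apart from the other 8 of its state, and rested on 9 counts. Chance alone gives such a sample in about 1 in 20 groups.

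MT1E moved opposite ways between resistant and parental cells under the 2 line labels. Every library labelled A498 resistant was above every A498 parental one, and every 786-O resistant library was below every 786-O parental one. The difference between the 2 changes was 9.88 on the log2 CPM scale, and it was not tested. It rests on the libraries labelled A498 resistant, whose profile was closer to 786-O than to A498 parental cells, and whose MT1E overlapped with that of 786-O resistant cells.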

How the results depend on the processing

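Over 216 results and 4794 recalculations, 4732 kept their direction and their side of the threshold or stayed near the value given. Among results with a test, 23 changed sign, all of them cluster sums near 0 that passed in neither fit. Differences without a test that changed sign but stayed near their value, such as MTF1 between the resistant states, are among the 4732. The cluster sum for durvalumab minus avelumab in 786-O resistant cells was -0.00081, and 0.00026 with relative log expression scaling, 0.0033 on raw totals, 0.00025 with DESeq2, 0.0026 with the replicate number as a block and 0.0025 summed over every copy. Leaving out 1 library, it ran between -0.062 and 0.080. In A498, that for durvalumab minus avelumab in the libraries labelled resistant ran between -0.086 and 0.088, and that for avelumab minus atezolizumab in parental cells between -0.092 and 0.073. In 786-O parental cells the ranges were -0.085 to 0.068 for durvalumab minus atezolizumab, -0.011 to 0.12 for avelumab minus atezolizumab and -0.12 to 0.0078 for durvalumab minus avelumab. The interactions of the sum ranged between -0.0075 and 0.14 for durvalumab minus avelumab in 786-O, and between the parental lines from -0.12 to 0.045 for avelumab minus atezolizumab and from -0.14 to 0.032 for durvalumab minus avelumab. MTF1 between the resistant states, which has no test here, ran between -0.0023 and 0.028. Members called in 786-O parental cells for durvalumab minus atezolizumab numbered 1, and 0 on raw totals, with DESeq2 and with the replicate number as a block. In 786-O resistant cells members called for durvalumab minus atezolizumab and for avelumab minus atezolizumab numbered 0, and 1 each without the filter on low counts, MT2A in both. The cluster sum for 786-O resistant minus parental cells was -1.20 and -1.09 on raw totals. Under the strict filter fewer genes were tested: the count of MTF1 targets outside the family past the threshold was 5 and became 3 under the A498 label, and was 7 and became 4 in 786-O, and that of other metallothionein copies was 2 and became 1 in all 4 pairs of states. Leaving out 1 library at a time gave 0 to 1 members called for durvalumab minus atezolizumab and for avelumab minus atezolizumab in 786-O parental cells, and for avelumab minus atezolizumab in 786-O resistant cells. In the second of these, MT1E was called without 786-O parental atezolizumab replicate 2 (adjusted p = 0.0397). The cluster sum for avelumab minus atezolizumab in 786-O resistant cells ranged between -0.24 and -0.098.

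Replicate numbers are shared by the groups, but libraries with the same number did not deviate together: correlations of their deviations ran between -0.208 and 0.267 within states. With the replicate number as a block, 209 of 212 results kept their direction and call, and the adjusted p of MT1L in 786-O parental cells for durvalumab minus atezolizumab was 0.0868. Depth limits MT1G, MT1H, MT1M and, outside 786-O parental cells, MT1L.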
